A study of Mus musculus with 4 samples.

Results

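The transcripts described here are those of 34 aminoacyl-tRNA synthetase genes, chosen by symbol, out of the 32285 genes in each deposited matrix. Of these, 20 encode cytosolic enzymes and 14, with names ending in 2, encode mitochondrial ones. Gars and Kars were counted as cytosolic, although each is known to give a cytosolic and a mitochondrial enzyme. All 34 had counts in Müller glia in every library and passed the filter on low counts there. Across mouse retinal cell classes, the question was which of them differed between NLGF and wild-type (WT) animals.

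Aminoacyl-tRNA synthetases join each amino acid to its transfer RNA, the step that sets what the ribosome reads from a codon. Most cells keep a cytosolic set and a mitochondrial set, usually from separate nuclear genes, and several cytosolic enzymes sit together in a multi-synthetase complex. Transcription of many cytosolic synthetase genes is known to rise when the factor ATF4 is made, as happens when the kinases of the integrated stress response, including the endoplasmic reticulum (ER) stress sensor PERK, phosphorylate the translation factor eIF2. Müller glia are the radial glia that span the retina, recycle neurotransmitter and support the photoreceptors.

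Retinas came from 4 mice at postnatal day 30, a female and a male per genotype, and each retina gave 1 droplet-based single-cell library. The labels call the groups wildtype and nlgf, and the study's title concerns ER stress in Müller glia of an Alzheimer's disease mouse. NLGF mice, as background, carry an App knock-in allele whose amyloid beta sequence is humanised and mutated, under the gene's own promoter. Each animal is a separate replicate, so n = 2 per genotype, and the p-values measure the spread between these 4 retinas and their preparations only. After filtering, 31329 cells in 20 clusters remained, and 132 barcode sequences occurred in more than 1 library.

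Class names rest on marker genes alone, so Müller glia here means Müller-like cells. Below, 4 values in a row stand for the libraries with WT before NLGF and, within a genotype, the female before the male. Müller glia numbered 258, 379, 416 and 385 cells. Together they held 1304174, 2053061, 2072476 and 2049097 unique molecular identifiers (UMIs, the count of captured transcripts). All 11 Müller markers were detected, and their summed level lay between 37941 and 39320 CPM (counts scaled to 1000000 UMIs of the class) in the 4 libraries, against 301 to 361 CPM in rods. Markers of other cells were also present, each list at a sum below that of the Müller markers. The 10 rod markers summed to 2671 to 3315 CPM, the 7 astrocyte markers to 833, 217, 247 and 258 CPM, and the 6 pigment epithelium markers to 6.13, 261, 8.20 and 107 CPM. Neither of the last pair separated the genotypes, since the high astrocyte value was that of the WT female and the high pigment epithelium values were those of the males. Of the 13 lists of other cell types, 3 were higher in both NLGF retinas than in both WT retinas. The amacrine markers summed to 945, 927, 1022 and 1018 CPM, the endothelial markers to 1905, 1850, 2162 and 1956 CPM and the microglial markers to 20.7, 18.0, 27.5 and 31.7 CPM. In their own classes the amacrine markers summed to 4083 to 4276 CPM and the endothelial markers to 12198 to 15284 CPM. The erythroid markers in Müller glia were lower in both NLGF retinas, at 19.2, 6.82, 6.76 and 4.88 CPM. The part of these markers' cells in the synthetase results was not tested.

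In Müller glia 7 of the 20 cytosolic synthetase genes rose in NLGF and none fell, whereas none of the 14 mitochondrial genes was called in either direction. The 7 were Cars, Iars, Yars, Aars, Lars, Tars and Nars, with fold changes from 1.41 to 3.98. Over all 11148 genes tested in this class, 0.592% were called higher and 0.466% lower (edgeR quasi-likelihood test, Benjamini-Hochberg adjusted p under 0.05). Log2 fold changes were above 0 for 14 of the 20 cytosolic and 10 of the 14 mitochondrial genes, against 50.4% of all tested genes, with medians of 0.24, 0.13 and 0.00296. The number of cytosolic genes called higher fell to 2 with DESeq2 (Cars and Iars), to 3 without a filter on low counts (with Aars), and to 4 after thinning every library to the same class total of 1304174 UMIs (Cars, Iars, Aars and Nars) or without the NLGF female (Cars, Iars, Aars and Gars). Tars also lost its call without the WT male or the NLGF male (edgeR adjusted p = 0.0533 and 0.112).

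Cars, which charges cysteine transfer RNA, had the highest fold change among the members. Its counts were 15 and 16 UMIs in the WT retinas and 88 and 70 UMIs in the NLGF retinas. At 11.7, 8.00, 42.3 and 33.8 CPM (normalised by TMM, the trimmed mean of M-values), the lower NLGF retina lay well above the higher WT retina. The log2 fold change was 1.99 ± 0.27 (SE; edgeR adjusted p = 0.000538).

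Iars, the isoleucyl enzyme and a part of the multi-synthetase complex, had 28, 35, 113 and 104 UMIs, or 21.9, 17.5, 54.3 and 50.2 CPM. Its log2 fold change was 1.43 ± 0.20 (SE; edgeR adjusted p = 0.000804), and the genotypes did not overlap. For Aars, the alanyl enzyme, the levels were 29.7, 37.0, 67.3 and 74.4 CPM, with a log2 change of 1.06 ± 0.17 (SE; edgeR adjusted p = 0.00243). Yars, the tyrosyl enzyme, had 15, 31, 75 and 57 UMIs, or 11.7, 15.5, 36.1 and 27.5 CPM. Its log2 change was 1.19 ± 0.26 (SE; edgeR adjusted p = 0.0282).

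Lars, Tars and Nars changed by less. Lars, the leucyl enzyme, is also a part of the complex, and had 46.8, 55.0, 93.7 and 81.6 CPM, with a log2 change of 0.77 ± 0.15 (SE; edgeR adjusted p = 0.0153). Tars, the threonyl enzyme, had 53.9, 51.0, 81.2 and 86.0 CPM, with a log2 change of 0.68 ± 0.14 (SE; edgeR adjusted p = 0.0262). Nars, the asparaginyl enzyme, had 148, 171, 234 and 220 CPM, with a log2 change of 0.50 ± 0.10 (SE; edgeR adjusted p = 0.0129). In all 7 genes both NLGF retinas were above both WT retinas. The genes were picked by this same contrast, so the separation is a description and adds no support to the calls. No single cell held more than 8.77% of a called gene's UMIs in any library.

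**Figure D1:**
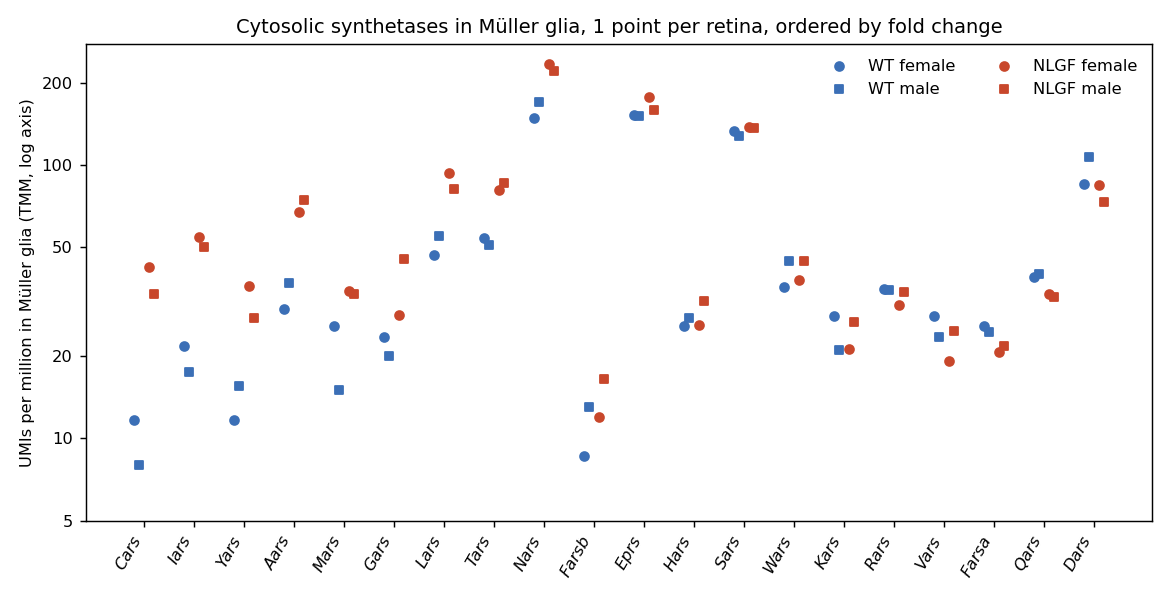
Level of each of the 20 cytosolic synthetase transcripts in Müller glia, in TMM-normalised CPM on a log axis, with 1 point per retina (blue WT, red NLGF, circles females, squares males) and genes ordered from the highest to the lowest fold change. Cars lies between 8.00 and 11.7 in the WT retinas and between 33.8 and 42.3 in the NLGF retinas, while Dars, at the right end, lies slightly lower in NLGF (84.6 and 73.4) than in WT (85.1 and 107).

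Of the 13 other cytosolic genes, 3 had an unadjusted p under 0.05, in a class where 10.5% of all tested genes did. Mars, the methionyl enzyme, had 25.8, 15.0, 34.6 and 33.8 CPM, with a log2 change of 0.81 ± 0.24 (SE; edgeR adjusted p = 0.162). Gars, the glycyl enzyme, had 23.4, 20.01, 28.4 and 45.4 CPM, with a log2 change of 0.78 ± 0.25 (SE; edgeR adjusted p = 0.192). For both, the NLGF retinas were above the WT retinas. Dars, the aspartyl enzyme, had 85.1, 107, 84.6 and 73.4 CPM, with a log2 change of -0.30 ± 0.14 (SE; edgeR adjusted p = 0.47). The other 10 had edgeR adjusted p-values from 0.643 to 0.994. Among all 13, both NLGF retinas were above both WT retinas for 4 genes and below them for 4. The share of all tested genes that separated in this way was not computed, so these counts are descriptions.

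Levels were also summed over the called and the other cytosolic genes. Summed over the 7 called genes, the Müller transcripts amounted to 318 and 345 CPM in the WT retinas and 611 and 579 CPM in the NLGF retinas, a ratio of group means of 1.79; the other 13 summed to 635, 633, 666 and 688 CPM, a ratio of 1.07. The split was made by the same contrast, so both ratios are descriptions and neither tests whether the set moved as a whole. Within the multi-synthetase complex 2 of 8 members were called (Iars and Lars), and outside it 5 of 12. By catalytic fold, 4 of 10 class I enzymes were called (Cars, Iars, Lars and Yars) and 3 of 10 class II enzymes (Aars, Nars and Tars). Over all genes tested in Müller glia, 0.592% were called higher. Differences between these groups of enzymes were not tested.

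The mitochondrial enzymes gave no call in Müller glia. With edgeR 0 of 14 passed the threshold, 1 (Lars2) had an unadjusted p under 0.05, and DESeq2 also called 0. Over all genes tested with edgeR in this class, 0.592% were called higher and 0.466% lower, and 10.5% had an unadjusted p under 0.05. The mitochondrial counts lie near these shares. Their log2 fold changes ran from -0.49 for Hars2 to 0.51 for Yars2. They rested on fewer counts. Apart from Lars2 the median gene had 62 UMIs over the 4 libraries, against 259 for the cytosolic genes, and the median standard error was 0.39 against 0.20.

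Mitochondrial partners of the called genes allow a comparison within an amino acid. Cars2 had 20.3, 16.5, 20.2 and 18.8 CPM and a log2 fold change of 0.11 ± 0.26 (SE). Iars2 had 51.5, 41.0, 47.1 and 47.3 CPM and a log2 fold change of 0.05 ± 0.17 (SE). In raw UMIs, the ratio of Cars to Cars2 was 0.577 and 0.485 in the WT retinas and 2.10 and 1.79 in the NLGF retinas. That of Iars to Iars2 was 0.424 and 0.427 in WT and 1.15 and 1.06 in NLGF, so in NLGF Müller glia the cytosolic transcript of each pair outnumbered the mitochondrial one. Ratios of Tars to Tars2 were 3.29, 2.91, 4.97 and 3.96. For Yars to Yars2 they were 1.25, 3.1, 3.41 and 3.17, where the WT male was close to the NLGF retinas. For Nars to Nars2 they were 15.8, 42.6, 28.6 and 32.5, and the genotypes overlapped. Yars2 had 12, 10, 22 and 18 UMIs, Tars2 had 21, 35, 34 and 45, and Nars2 had 12, 8, 17 and 14. These 3 genes had log2 fold changes of 0.51 ± 0.41, 0.16 ± 0.27 and 0.27 ± 0.46 (SE). The difference between a gene and its partner was not tested.

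Lars2, the mitochondrial leucyl enzyme, had the most UMIs of the mitochondrial members and pointed downward. It had 731, 746, 649 and 537 CPM in Müller glia, with a log2 change of -0.32 ± 0.11 (SE; edgeR adjusted p = 0.252), and both NLGF retinas were below both WT retinas. It was called lower without the WT female (edgeR adjusted p = 0.0318). Gm42418, a gene model that overlaps ribosomal RNA sequence, was lower in the same libraries, with 37258, 34935, 28202 and 26942 CPM before TMM and a log2 fold change of -0.43 (edgeR adjusted p = 0.00139). Its part in the Lars2 counts was not tested. Against Lars2, the ratio of Lars UMIs was 0.0641 and 0.0737 in WT and 0.144 and 0.152 in NLGF. Without Lars2, the mitochondrial members summed to 193, 172, 181 and 197 CPM.

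**Figure D2:**
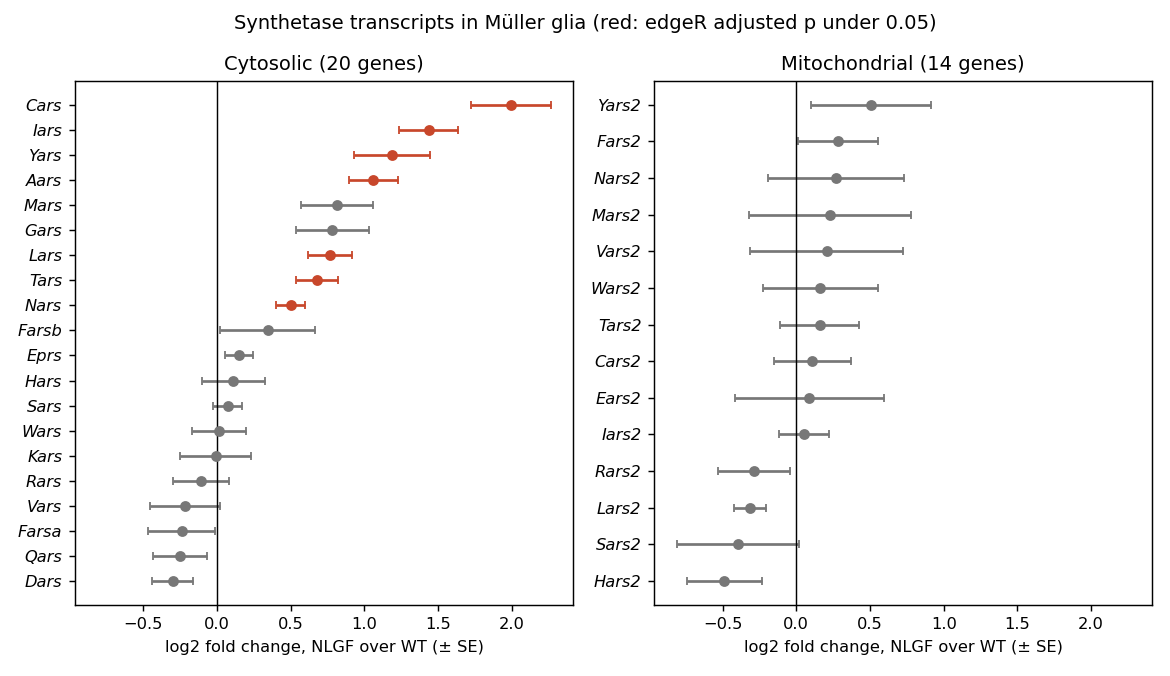
Log2 fold change of NLGF over WT in Müller glia with its standard error for the 20 cytosolic genes (left) and the 14 mitochondrial genes (right); red marks an edgeR adjusted p under 0.05. The 7 red points, all cytosolic, lie between 0.50 and 1.99, and the mitochondrial points lie between -0.49 and 0.51 with wider bars.

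The Müller class joined a cluster with a median of 9409 UMIs per cell and a cluster with a median of 805, the latter holding 10.1% to 11.3% of the class UMIs in each library. By cells, the shallow cluster was a far larger part of the class, with 110, 198, 210 and 191 of the 258, 379, 416 and 385 cells. Ttr, a pigment epithelium marker, led the shallow cluster, and Rlbp1 was its only Müller marker among the top 10 genes. In the deep cluster the 7 called genes summed to 317, 350, 625 and 594 CPM. In the shallow cluster they summed to 327, 303, 496 and 466 CPM, from 43, 63, 112 and 108 UMIs. There, Yars, Iars and Lars each overlapped between the genotypes, whereas Cars, Aars, Tars and Nars did not. Iars, for example, had 30.4, 14.4, 26.6 and 21.6 CPM, and Cars had 0, 0, 6 and 1 UMIs. The 7 genes were called on sums that include these cells, so the shallow sum is no separate test. The share of all genes that separated by genotype in the shallow cluster was not computed, so these overlaps are descriptions. Without the shallow cluster 7 cytosolic genes were again called higher and no mitochondrial gene was called, and the same counts were obtained without cells carrying UMIs of at least 2 astrocyte markers.

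The lists of scaffold, editing and elongation genes that act beside the synthetases gave no call in Müller glia. With edgeR, 0 of 3 scaffold genes of the complex (Aimp1, Aimp2 and Eef1e1) and 0 of 4 genes for the mitochondrial glutaminyl and formylmethionyl route were called, and none of these had an unadjusted p under 0.05. Among 4 trans-editing factors, which remove wrongly charged amino acids, and 9 export and elongation factors, 0 were called and 1 of each had an unadjusted p under 0.05. These were Prorsd1 (log2 fold change -0.42 ± 0.15, SE) and the elongation factor subunit Eef1b2 (-0.29 ± 0.10, SE). DESeq2 called 0 in all of these lists. Over all genes tested with edgeR in Müller glia, 0.592% were called higher and 0.466% lower, and 10.5% had an unadjusted p under 0.05. At such rates, the absence of calls in lists this short says little about these genes.

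The ATF4 response was covered by a list of target genes and factors. Of 16 listed, 15 were tested and 11 rose, namely Atf4, Ddit3, Atf5, Atf3, Trib3, Chac1, Sesn2, Cebpg, Mthfd2, Nupr1 and Slc7a5, with none lower. Over all 11148 genes tested with edgeR in this class, 0.592% were called higher. The list was drawn up with earlier results of these data known and is not independent evidence of a direction. DESeq2 called 7 of the 16. Atf4, which encodes the factor itself, had 107, 154, 418 and 470 UMIs with a log2 change of 1.42 ± 0.11 (SE; edgeR adjusted p = 4.77e-07). Mthfd2, an enzyme of mitochondrial one-carbon metabolism, had 5, 10, 100 and 96 UMIs. Slc7a5, a transporter of large neutral amino acids, had 21, 36, 82 and 111 UMIs. Chac1, a glutathione-degrading enzyme, had 0 UMIs in both WT retinas and 36 and 43 in the NLGF retinas. At these WT counts, Chac1 and Mthfd2 passed the filter on low counts only through the NLGF retinas. They could only come out higher, so their calls are descriptions. The other called genes of the list were not checked for this. Asns, the asparagine synthetase, had 1, 3, 12 and 5 UMIs and was too low to be tested.

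Promoters of the members, called or not, and of the ATF4 response genes were searched for the core of the C/EBP-ATF response element. This is the composite site bound by ATF4 dimers. The core, written TGATGNAA, was sought on both strands of RefSeq promoters (GRCm38.p6, 250 bases before to 50 after the start). An entry was at hand for 12 of the 20 cytosolic and 13 of the 14 mitochondrial genes. The core was present in 5 of the 12 (Yars, Gars, Aars, Iars and Tars), in 0 of the 13, and in 3.97% of all 32851 promoters of that length. By outcome in Müller glia it was present in 4 of 4 called genes with an entry. Among the cytosolic genes with an entry that were not called, it was present in Gars and in 0 of the 7 others. Gars was set apart for being higher at an unadjusted p under 0.05. Dars, lower at an unadjusted p under 0.05, is among the 7. Cars, Lars, Nars, Mars, Rars, Wars, Vars, Hars and Hars2 had no promoter entry at hand and were not searched. Of 15 ATF4 response genes with an entry, 6 held the core. The matches describe letters in a window and are not measured binding.

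For each of these 5 genes the 30 bases around a match are shown because the called genes with an entry share this core, each read 5′ to 3′ on the strand that carries the core, with the core in capitals.
Yars: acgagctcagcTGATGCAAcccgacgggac
Iars: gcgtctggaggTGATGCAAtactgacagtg
Tars: agctaaccagcTGATGCAAcgggactcctg
Aars: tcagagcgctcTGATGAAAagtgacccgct
Gars: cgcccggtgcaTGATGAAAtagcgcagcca
On the gene's own strand, counted from the RefSeq start, the core of Yars lay at 4 to 11, that of Iars at 8 to 15, that of Tars at -15 to -8, that shown for Aars at 10 to 17, and that of Gars at -30 to -23. These windows are chr4:129189895-129189924 (Yars), chr13:49682126-49682155 (Iars), chr15:11399655-11399684 (Tars), chr8:111033840-111033869 (Aars) and chr6:55037960-55037989 (Gars). Of the cores shown, that of Yars read along the gene's strand and the others on the opposite strand.

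For Tars, a gene of the minus strand on chromosome 15, the sequence before its annotated first exon is shown at greater length to place the core (capitals, here on the opposite strand) next to the exon, at chr15:11399666-11399908.
Tars: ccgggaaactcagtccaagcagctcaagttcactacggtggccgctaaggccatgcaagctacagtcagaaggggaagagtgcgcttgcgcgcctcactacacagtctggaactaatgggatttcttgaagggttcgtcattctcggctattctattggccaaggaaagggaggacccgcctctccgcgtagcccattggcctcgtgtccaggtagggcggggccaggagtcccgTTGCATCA

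In GENCODE M21 on GRCm38 the called genes lie on different chromosomes except for Lars and Nars, which are both on chromosome 18. Cars spans chr7:143557230-143600090 (minus strand), Iars chr13:49682100-49734267 (plus), Yars chr4:129189760-129219607 (plus), Aars chr8:111033144-111057664 (plus), Tars chr15:11382301-11399665 (minus), Lars chr18:42202298-42262194 (minus) and Nars chr18:64499647-64516652 (minus). The spans of Hars and Hars2 overlap at their 5′ ends on opposite strands, so reads from that stretch could belong to either. Neither gene was called.

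No synthetase gene was called in any other class. Rods, cones, cone bipolar, rod bipolar and amacrine cells tested 32 to 34 of the 34 members, endothelial cells 11 and microglia 2. Background rates of calls were low there too, at 0.00808% of tested genes in rods, 0.111% in cone bipolar cells, 0.00893% in amacrine cells, 0.096% in endothelial cells and 0% in cones, rod bipolar cells and microglia. With edgeR 0 members passed, 10 results had an unadjusted p under 0.05, and DESeq2 called 0. Over all genes, an unadjusted p under 0.05 was found for 8.41% in rods, 5.86% in cones, 6.08% in cone bipolar cells, 6.31% in rod bipolar cells, 4.71% in amacrine cells, 5.19% in endothelial cells and 10.3% in microglia. Without the WT female, Gars and Lars2 were called in rods, and no other library left out gave a member call. Microglia tested only Nars and Lars2 on small counts, where Nars had 6, 10, 16 and 9 UMIs, with a log2 change of 1.51 ± 0.55 (SE; edgeR adjusted p = 0.426).

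The 9 other results with an unadjusted p under 0.05 did not point one way. Log2 fold changes were -0.23 for Gars, -0.27 for Qars and -0.30 for Lars2 in rods. They were 0.51 for Hars and 0.70 for Yars2 in cone bipolar cells, 0.98 for Wars2 and -1.22 for Yars2 in rod bipolar cells, -0.47 for Yars in amacrine cells and -1.01 for Sars in endothelial cells. Adjusted p-values with edgeR were 0.576 or above for all of these. The median log2 fold change of the cytosolic members was -0.000447 in rods, 0.07 in cones, 0.07 in cone bipolar cells, -0.000873 in rod bipolar cells and -0.03 in amacrine cells.

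**Figure D3:**
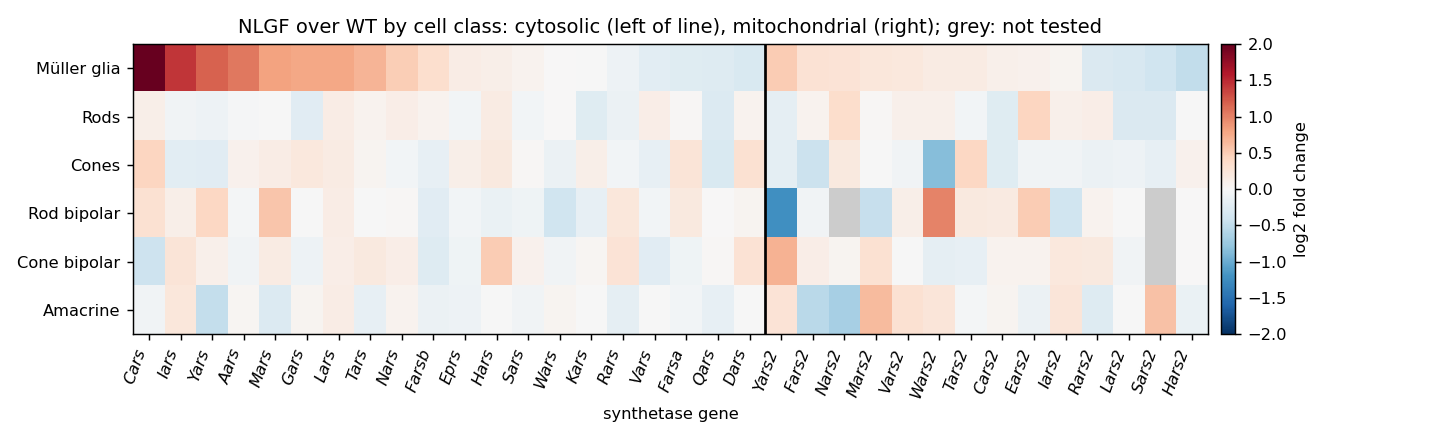
Log2 fold change of NLGF over WT for the 34 synthetase genes (columns, cytosolic left of the line and mitochondrial right, each ordered by the Müller value) in 6 cell classes (rows); grey cells were not tested. The run of strong red at the left of the Müller row, from 1.99 for Cars, belongs to the only row with called synthetase genes, and the darkest blue cell is Yars2 in rod bipolar cells (-1.22, not called).

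Whether Müller glia differed from rods was tested directly, as an interaction of class and genotype with the library as a block. Of all 13578 genes tested 0.354% were called, and 5 members were among them. Cars differed by 1.91 ± 0.29 on the log2 scale (SE; edgeR adjusted p = 1.3e-07). Iars differed by 1.51 ± 0.23 (SE; edgeR adjusted p = 9.77e-08), Yars by 1.30 ± 0.29 (adjusted p = 0.00445), Aars by 1.10 ± 0.19 (adjusted p = 1.09e-05) and Gars by 1.04 ± 0.23 (adjusted p = 0.00427). For Tars, Lars, Mars and Nars the differences were 0.63, 0.62, 0.85 and 0.38, with edgeR adjusted p-values of 0.0684, 0.0687, 0.153 and 0.26. With DESeq2 none of the 5 was called. Cars lost its call without the WT male (edgeR adjusted p = 0.0576), Gars without either male, and Yars without either female, whereas Iars and Aars kept theirs with any library left out.

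In rods, which gave the most UMIs, Cars had 25.0, 30.4, 30.6 and 29.9 CPM and Iars 40.8, 39.6, 37.8 and 38.9 CPM. Each class was normalised on its own. On that scale both genes stood lower in WT Müller glia than in rods, and in NLGF Müller glia they stood higher. Summed over the 7 genes, the WT mean was 332 CPM in Müller glia, 400 in rods, 440 in cones, 437 in cone bipolar cells, 528 in rod bipolar cells and 594 in amacrine cells. In NLGF the means were 595 CPM in Müller glia, 443 in rods, 443 in cones, 481 in cone bipolar cells, 563 in rod bipolar cells and 619 in amacrine cells. Both NLGF retinas were also above both WT retinas, by less, in rods (412, 388, 445 and 442 CPM), cone bipolar cells (449, 425, 500 and 462 CPM) and rod bipolar cells (538, 518, 580 and 546 CPM), and in the small endothelial and microglial classes (334, 312, 385 and 340 CPM, and 232, 364, 491 and 425 CPM). These sums weigh the genes with most counts, above all Nars, with a mean of 160 CPM in rods. They do not show that each gene rose. In rods Cars overlapped between the genotypes and Iars was not higher in NLGF. The interaction was also fitted against the other classes, an addition made with the data in view. Iars was called against amacrine, cone, cone bipolar and rod bipolar cells, with differences of 1.20, 1.62, 1.14 and 1.30. Cars and Aars were called against amacrine and cone bipolar cells, and Yars against amacrine cells, at background rates of 0.446% of genes (amacrine), 0.0942% (cone), 0.417% (cone bipolar) and 0.29% (rod bipolar). Against endothelial cells and microglia edgeR called 0 members, with 4 and 1 at an unadjusted p under 0.05 and background rates of 0.234% and 0.0102%.

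**Figure D4:**
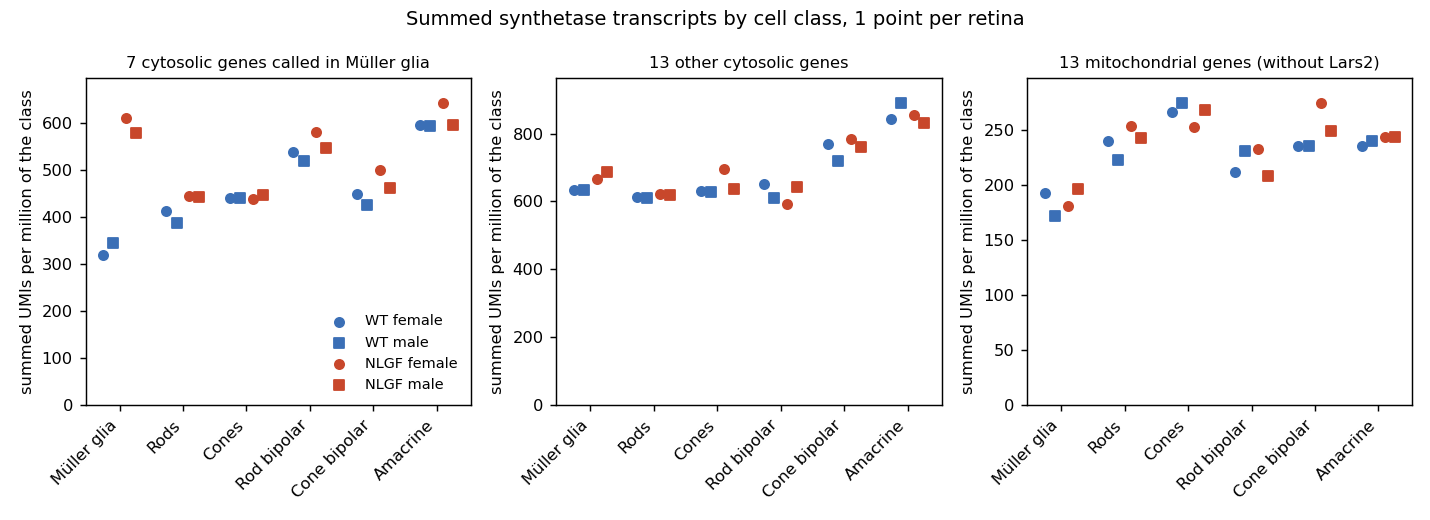
Summed CPM of a class for the 7 cytosolic genes called in Müller glia (left), the 13 other cytosolic genes (middle) and the 13 mitochondrial genes without Lars2 (right), with 1 point per retina and all axes from 0. In the left panel the Müller points move from 318 and 345 in WT to 611 and 579 in NLGF, and in the other panels the Müller genotypes lie close together.

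Levels of single members also differed between the classes, given here as a description because the classes were built from the same counts. Over these 6 classes and by the mean of the WT retinas alone, 11 of the 20 cytosolic members had their highest level in amacrine cells, 7 in rods and 1 each in Müller glia (Dars) and rod bipolar cells (Lars). Of the called genes, Cars, Iars and Tars were highest in rods and Aars, Nars and Yars in amacrine cells. The following means are over all 4 libraries. Lars had 189 ± 13.1 CPM in rod bipolar cells (SD, n = 4 libraries) and from 59.8 to 69.0 CPM on average in the other 5 classes. Farsa, a subunit of the phenylalanyl enzyme, had 67.4 ± 4.19 CPM in rods and 23.0 ± 2.02 CPM in Müller glia. Dars was highest in Müller glia, at 86.7 ± 12.6 CPM against 32.0 ± 2.02 CPM in rods. Nars was highest in amacrine cells, at 337 ± 20.5 CPM.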

How the data were processed

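Single-cell libraries of 4 retinas were deposited as raw UMI counts per gene and barcode. Cell Ranger 6.1.1 wrote them, per the file headers. Version 3.1.0, STAR and mm10 are named in the submitters' processing notes. The treatment of intronic reads is not stated in the labels or headers. Barcode totals started at 500 UMIs. Kept were 33329 of 35191 barcodes, those with 300 or more genes and no more than 20% mitochondrial UMIs. Scrublet's automatic threshold marked 2 cells, so the top 6% of scores per library were removed. Clustering used scanpy 1.11.5 (2000 variable genes, 30 components, 20 neighbours, resolution 1). Clusters were named from markers; 3 stayed unnamed, under rules for ties and for a mean marker z-score under 0.8 set after the data were seen. A ganglion-like cluster whose rod-marker CPM was 59.0% to 68.8% of the rods' was left out, a threshold of 50% also set after the data were seen.

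UMIs were summed per library and class (at least 10 cells in every library) and compared with edgeR 4.0.16 (quasi-likelihood, TMM, filterByExpr, genotype only, Benjamini-Hochberg over all tested genes, threshold 0.05). Each standard error is the size of the log2 fold change over the root of F. Alternatives were DESeq2 1.42.0, RLE factors, no filter, a sex block, each library left out, doublets kept, Müller glia without the shallow cluster or without cells with astrocyte markers, and thinning to 1304174 UMIs per library. Summed values per class are raw CPM. The test was checked on simulated counts. Members and lists were chosen with earlier results of these data known. Named were members past the threshold in any class, those with an unadjusted p under 0.05 in Müller glia, the partners of called genes, and list genes past the threshold in Müller glia; members of other classes with an unadjusted p under 0.05, Asns, Prorsd1, Eef1b2, Gm42418 and the levels of Farsa were named after their values were seen. A few items of the lists and promoters are not reported here.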

Additional observations from a re-analysis of the deposited data

Results flagged for a closer look

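The NLGF effect in Müller glia differed from that in rods for 5 members by the interaction test (edgeR), with differences in log2 fold change of 1.91 for Cars, 1.51 for Iars, 1.30 for Yars, 1.10 for Aars and 1.04 for Gars. Gars passed this test without passing in either class alone: its log2 fold change was 0.78 in Müller glia and -0.23 in rods.

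For 4 mitochondrial partners of called genes, the NLGF retina was below the WT retina of the same sex in females and above it in males. On the log2(CPM + 1) scale the female differences in Müller glia were -0.13 for Iars2, -0.18 for Nars2, -0.0042 for Tars2 and -0.0074 for Cars2. The difference between the sexes rests on 1 retina per sex and genotype and was not tested.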

How the results depend on the processing

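Cars and Iars were called higher in Müller glia under all 12 alternatives, Aars under 11 (DESeq2 adjusted p = 0.14), Nars under 9, Yars and Lars under 8 and Tars under 6. The 7 cytosolic calls became 2 with DESeq2, 3 without a filter on low counts (Cars, Aars and Iars), 4 after thinning and 4 to 9 with a library left out, with 4 (Gars, Cars, Aars and Iars) without the NLGF female. The genes called higher or lower in Müller glia, 118 in all, became 42 with DESeq2, 34 without the filter, 251 with doublets kept, 61 after thinning and 91 to 272 with a library left out (268 and 272 without the WT female or male). With sex as a replicate block the count was 289, with 9 cytosolic genes (Gars and Mars added) and 1 mitochondrial gene lower (Lars2, adjusted p = 0.0272); same-sex retinas' deviations correlated at 0.177 over genes, and at 0.03 without Xist, Tsix and Y-linked genes. Lars2 was also called without the WT female, so that leaving out a library gave 0 to 1 lower mitochondrial genes.

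The cytosolic median log2 fold change was 0.17 to 0.35 with a library left out, 0.33 without the shallow cluster and 0.35 after thinning. The mitochondrial median was -0.15 to 0.18, with -0.15 without the WT male and -0.10 without the NLGF male. Its sign therefore depended on single retinas. With a library left out, the log2 change ran from -0.054 to 0.24 for Cars2, from -0.12 to 0.20 for Iars2 and from -0.32 to 0.89 for Nars2, each lowest without the WT male, and from -0.059 to 0.35 for Tars2, lowest without the NLGF male. After thinning it was -0.041 for Nars2. In the other classes 19 genes were called in all, 11 with DESeq2 and 178 to 1164 with a library left out (1164 without the WT female). Synthetase members there numbered 0 to 2, the 2 being Gars and Lars2 in rods without the WT female. For Müller glia against rods, 48 genes became 7 with DESeq2 and 30 to 141 with a library left out, and the 5 members became 0 with DESeq2 and 3 to 5. The cause of these differences was not tested.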
